A study of Mus musculus with 12 samples.

Results

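The proteasome genes of C2C12 myotubes were followed through treatment with ginsenoside Rc (gRc), hydrogen peroxide (H2O2) and their combination. Members were chosen by name alone, as protein-coding genes whose symbol begins with Psma, Psmb, Psmc, Psmd, Psme or Psmf and continues with a digit. This rule gave 46 of the 48795 genes in the files, and 43 of them had enough counts to be tested among 14838 genes. The 3 that did not were Psma8, Psmb9 and Psmb11, and 4 pseudogenes with similar symbols were not members. Psmc3ip fits the name rule but encodes a partner in meiotic recombination and not a subunit of the particle. It is described on its own, but the counts and medians of the 43 tested members include it.

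The proteasome is the main protease of the cytosol and nucleus and degrades proteins that carry a ubiquitin chain. Its core particle stacks outer alpha rings, which gate the entry, on inner beta rings, which hold the proteolytic sites. A regulatory particle caps the core: its base unfolds the substrate with a ring of ATPases, and its lid removes the ubiquitin. Other activators can cap the core instead, interferon-induced subunits can replace the proteolytic ones, and dedicated chaperones assist assembly. In skeletal muscle this system removes myofibrillar proteins during atrophy, and in mammalian cells short of proteasome activity the transcription factor NFE2L1 raises the transcription of subunit genes.

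C2C12 is a mouse myoblast line, and the cells had been differentiated for 5 days in low-serum medium before treatment. Poly(A) RNA of 12 libraries was sequenced, with 3 libraries in each of 4 groups. The vehicle group received 0.02% DMSO for 24 h and the gRc group 10 µM gRc, a ginseng saponin, for 24 h. The H2O2 group had 18 h of vehicle followed by 6 h of 0.25 mM H2O2, and the gRc+H2O2 group had 10 µM gRc before the same peroxide exposure. The labels of the gRc+H2O2 group give the pretreatment as 18 h in the description and as 24 h in the treatment tag. The labels also name the cells as myoblasts, whereas all 6 markers of differentiated muscle that were looked up, such as Myog and Myh3, were detected in every library. Whether the replicates of a group were grown apart is not stated, and p-values therefore reflect how far single libraries differ, which can be technical. All groups come from a single line, and from RNA of a whole culture fewer cells of a kind and less RNA per cell cannot be told apart.

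The libraries held between 19274762 and 31409066 expected counts, of which proteasome genes took 0.510% to 0.811%. Vehicle replicate 1 stood apart from vehicle replicate 3 and gRc replicate 3 on the first principal component, which took up 43.1% of the variance over all genes. The share of counts from the mitochondrial genome was 0.1003% in vehicle replicate 1, 4.52% in vehicle replicate 3, 4.53% in gRc replicate 3 and between 0.538% and 3.15% in the other 9. Summed levels of the muscle markers were 10214 to 10935 CPM (counts scaled to the library size with TMM normalization) in vehicle and 7920 to 8416 CPM in H2O2, and those of 4 cycling-cell markers were 171 to 236 CPM and 155 to 176 CPM. Of 5 fibroblast markers, which myoblast lines share, the sum ranged from 3646 to 25319 CPM within the vehicle group. The macrophage markers Ptprc and Adgre1 and all 3 endothelial markers were too low to be tested, and the remaining macrophage markers summed to at most 1.77 CPM. Whether these differences between libraries had a part in the results below was not tested. The counts of members past the threshold in the peroxide comparisons are given with and without the 3 libraries named here. Levels, particle sums and genes of the pathway lists are given only with them.

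The 4 members that rose with peroxide in both the absence and the presence of gRc are shown first by the 250 bases that precede their RefSeq start sites, so that the letters upstream of the genes the results turn on can be read. The sequences are RefSeq promoter windows of mouse build GRCm38.p6, written along the transcribed strand, with the CCAAT box (CCAAT, or ATTGG on the other strand) in capitals.
Psmd11, chr11:80428365-80428614, plus strand: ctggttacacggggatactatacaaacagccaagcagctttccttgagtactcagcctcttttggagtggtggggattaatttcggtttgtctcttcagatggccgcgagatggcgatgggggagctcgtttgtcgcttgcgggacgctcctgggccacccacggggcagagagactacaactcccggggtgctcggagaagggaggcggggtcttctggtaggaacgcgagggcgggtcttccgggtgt
Psmd1, chr1:86064369-86064618, plus strand: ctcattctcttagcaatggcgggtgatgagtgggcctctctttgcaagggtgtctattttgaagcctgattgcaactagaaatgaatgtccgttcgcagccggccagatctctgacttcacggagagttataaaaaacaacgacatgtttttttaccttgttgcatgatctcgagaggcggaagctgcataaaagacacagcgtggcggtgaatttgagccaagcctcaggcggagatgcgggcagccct
Psme3, chr11:101315963-101316212, plus strand: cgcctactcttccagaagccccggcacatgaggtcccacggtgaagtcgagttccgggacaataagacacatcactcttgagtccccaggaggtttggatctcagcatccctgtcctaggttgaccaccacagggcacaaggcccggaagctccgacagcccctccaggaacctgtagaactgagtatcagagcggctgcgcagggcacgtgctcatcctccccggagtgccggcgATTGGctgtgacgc
Psmd5, chr2:34870963-34871212, minus strand: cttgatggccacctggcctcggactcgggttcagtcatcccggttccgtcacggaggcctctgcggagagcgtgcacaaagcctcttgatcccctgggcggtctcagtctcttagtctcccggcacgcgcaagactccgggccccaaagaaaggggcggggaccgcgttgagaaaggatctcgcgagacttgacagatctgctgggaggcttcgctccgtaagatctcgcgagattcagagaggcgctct
The GENCODE spans of Psmd5 and Psmd1, given with their values, begin further upstream than the RefSeq start sites, so the Psmd5 stretch and most of the Psmd1 stretch lie inside those spans, and the data do not show which start is used. The Psme3 stretch held an ATTGG beginning 14 bases before the start site, and the other 3 stretches held no CCAAT on either strand. G and C made up 49.6% of the Psmd1 stretch, 59.2% of that of Psmd11, 60.8% of that of Psme3 and 62% of that of Psmd5. The antioxidant response element, which NFE2L1 and NFE2L2 bind as partners of small MAF proteins, has the core TGACNNNGC, and none of these 4 stretches held it on either strand.

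Over whole windows of 300 bases, from 250 before to 50 after a start site, the core TGACNNNGC (GCNNNGTCA on the other strand) was present in 6 of 42 member windows, or 14.3%, against 12.4% of all 32851 windows. A window was found for 39 of the 46 members, and not for Psmd7, a lid gene that rose with H2O2 against vehicle. The 6 members with a core are shown with up to 10 bases on each side, along the strand on which the core reads and with the core in capitals.
Psmb5, chr14:54618024-54618052, minus strand: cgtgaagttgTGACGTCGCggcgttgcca
Psmb6, chr11:70525338-70525366, plus strand: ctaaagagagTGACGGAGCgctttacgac
Psmc6, chr14:45329587-45329615, minus strand: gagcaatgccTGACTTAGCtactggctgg
Psmd12, chr11:107479278-107479299, minus strand: ggggcaaatgTGACACAGCaga
Psmd9, chr5:123228149-123228177, plus strand: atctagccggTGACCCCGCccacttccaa
Psme4, chr11:30771758-30771786, minus strand: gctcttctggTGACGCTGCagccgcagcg
The base of each core farthest upstream lay 47, 9, 227, 247, 31 and 7 bases before the start site, in the order printed. Psmb5 and Psmb6 encode proteolytic subunits, Psmc6 an ATPase of the base, Psmd12 a lid subunit, Psmd9 an assembly chaperone and Psme4 an activator. In the main fit of all 12 libraries none of these 6 passed the test with peroxide. For gRc+H2O2 against gRc, Psmc6 and Psmd12 passed as higher without vehicle replicate 1. Psmc6 also did so with only those 2 groups fitted. CCAAT or ATTGG was present in 35.7% of member windows and 37.4% of all windows, and the AP-1 site TGACTCA, searched on both strands, in 2.38% and 5.20%. A core can overlap an AP-1 site, but the Psmd9 window was the only member window with an AP-1 site. Such matches describe the letters of these windows and say nothing of binding in these cells.

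In vehicle-treated myotubes the subunits of the constitutive particle formed a group of abundant transcripts, whereas the interferon-induced subunits were low or near 0. These levels compare genes with each other and so are given as TPM, the abundance that RSEM corrects for transcript length, as mean ± SD over 3 libraries. The 7 alpha ring genes lay between 106 TPM for Psma1 and 347 TPM for Psma3, and the 7 beta ring genes between 131 TPM for Psmb2 and 406 TPM for Psmb6. The 6 ATPases of the base ran from 105 TPM for Psmc6 to 640 TPM for Psmc3, and the 8 lid genes from 104 TPM for Psmd12 to 459 TPM for Psmd8. The highest mean belonged to Psmd4, a ubiquitin receptor of the base, at 688 ± 552 TPM, but its 3 vehicle libraries gave 1312, 489 and 263 TPM, and it did not differ beyond this spread from Psmc3 at 640 ± 110 TPM. Among the 33 members with a mean of at least 100 TPM, 31 of the 32 neighbouring pairs in the order of means lay closer together than the larger of their SDs, so most neighbours did not differ beyond their spread.

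Activators, inhibitor and chaperones had lower means than the constitutive genes, except that the activator genes Psme3 and Psme2, at 113 and 112 TPM, stood above Psma1, Psmc6 and Psmd12. The activators reached from 7.38 TPM for Psme2b to 113 TPM for Psme3, which caps the core in the nucleus, and Psmf1, an inhibitor of the core, was at 18.3 TPM. The chaperones of the base Psmd5, Psmd10 and Psmd9 were at 43.5, 38.7 and 22.7 TPM, and Psmc3ip was at 6.75 TPM. Psme2b is a near-identical copy of Psme2, so the division of reads between them is uncertain.

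**Figure D1:**
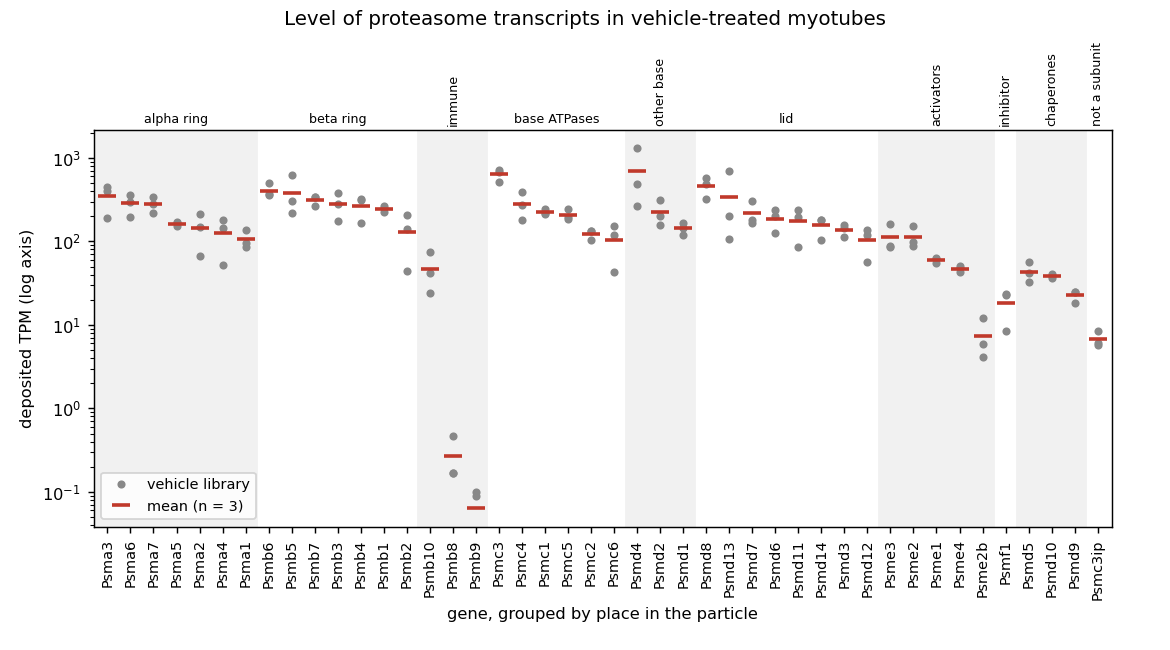
Level of each proteasome gene in the 3 vehicle libraries (grey points) and their mean (red bar), as deposited TPM on a log axis, with genes grouped by their place in the particle. Constitutive ring, base and lid genes lie between 104 and 688 TPM by their means, Psmb10 at 46.8 TPM, and Psmb8 and Psmb9 below 1 TPM; Psma8 and Psmb11, at 0 in vehicle, and single libraries at 0 are not drawn.

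The 3 proteolytic subunits have interferon-induced counterparts, and these myotubes made almost entirely the constitutive transcripts for a pair of the 3 sites. Psmb8, the counterpart of the chymotrypsin-like Psmb5, took 0.0287% to 0.237% of the TPM of that pair over the 12 libraries, on 2 to 12 expected counts a library. Psmb9, the counterpart of the caspase-like Psmb6, took 0% to 0.0865%, on 0 to 7.64 counts. Psmb10, the counterpart of the trypsin-like Psmb7, took 8.44% to 17.9% of its pair in vehicle and 7.57% to 7.74% in H2O2. With gRc the shares overlapped, at 11.7%, 11.9% and 8.43% in gRc and 9.17%, 7.12% and 9.45% in gRc+H2O2. The lower Psmb10 share with peroxide was thus without overlap in the first pair of groups only, and no test was made on it. These shares also depend on the effective length by which RSEM scales TPM. For Psmb10 it was 360, 525 and 612 bases in vehicle and 483, 487 and 461 bases in H2O2.

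Exposure to 0.25 mM H2O2 for 6 h raised 6 of the 43 tested members and lowered 0 when compared with vehicle (edgeR quasi-likelihood test, adjusted p over all genes under 0.05). The share of members that rose can be set against the background, where 15.7% of all 14838 genes passed the test, 7.81% as higher and 7.84% as lower. At an unadjusted p under 0.05 there were 12 members, all higher, against 29.8% of all genes in either direction, and DESeq2 called 8 higher and 0 lower. The median log2 fold change of the members was 0.28, against -0.06 over all genes, and 32 of 43 members were above 0, against 45.8% of all genes. The 3 H2O2 libraries lay above all 3 vehicle libraries for 15 members and below them for 1, Psmd10, against 15.9% and 15.2% of all genes.

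The 6 genes that passed belonged to the regulatory particle (4 of 17), the activators (1 of 5) and the assembly chaperones (1 of 3). Of the 14 core genes 0 passed, a count near the 7.81% of all genes called higher. In the lid 2 of 8 genes rose, with a median log2 fold change of 0.55. In the base 1 of 6 ATPases and 1 of 3 other subunits rose, with medians of 0.29 and 0.18. All 7 alpha ring genes had log2 fold changes above 0, from 0.12 to 0.50 with a median of 0.39, and 2 reached an unadjusted p under 0.05; the smallest adjusted p among them was 0.0659, for Psma1 by edgeR, and DESeq2 called Psma1. In the beta ring the median was 0.10, 5 of 7 were above 0, and no gene reached an unadjusted p under 0.05. A difference in response between the rings or particles was not tested.

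**Figure D2:**
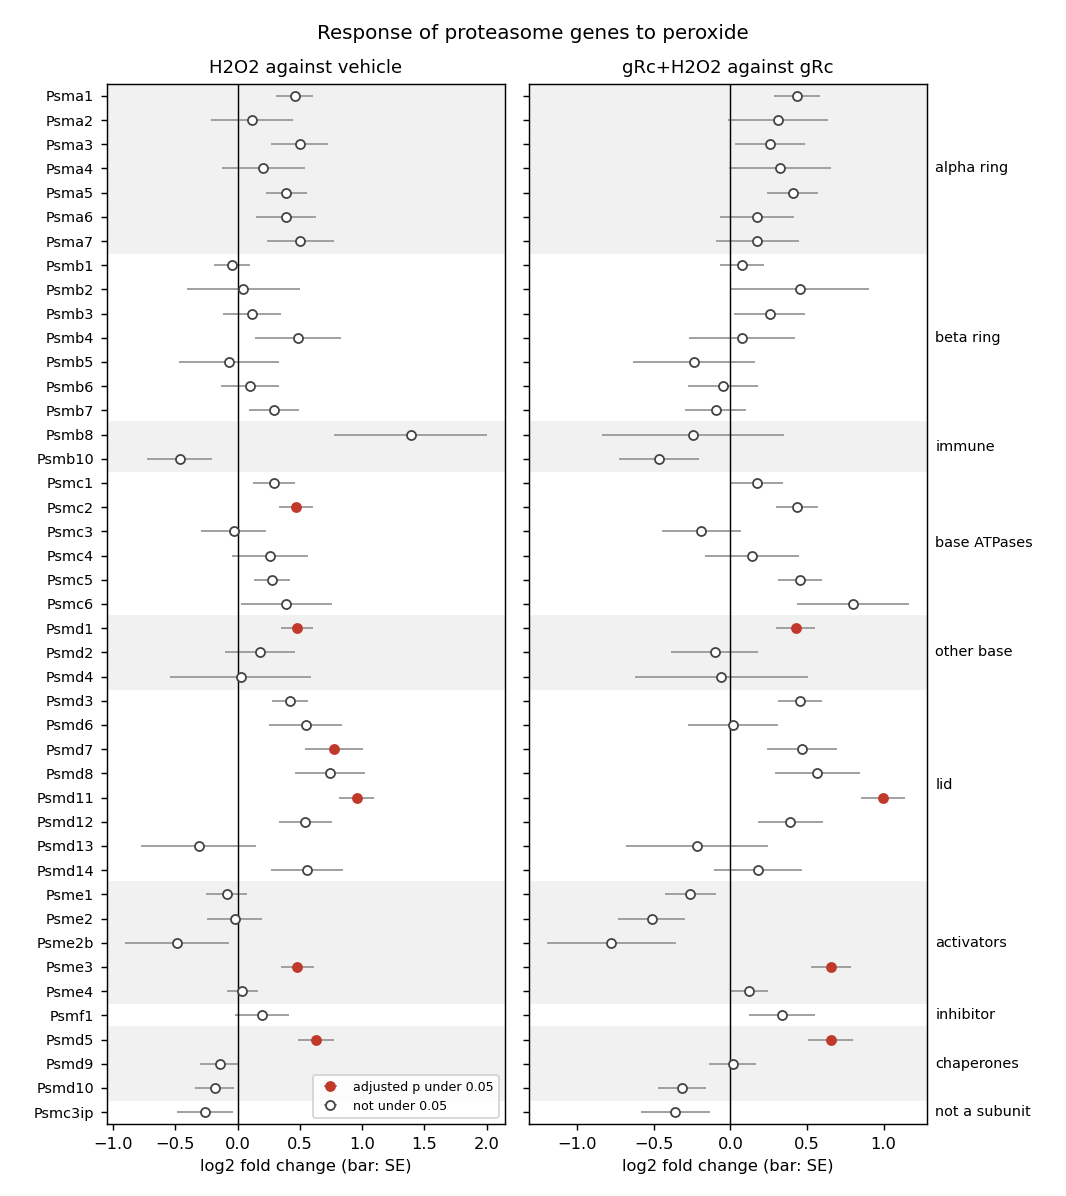
Log2 fold change (points, with standard error) of the 43 tested proteasome genes for H2O2 against vehicle and for gRc+H2O2 against gRc, by place in the particle; filled points have an adjusted p under 0.05. Filled points number 6 in the first comparison and 4 in the second, all to the right of 0, and all 7 alpha ring genes lie to the right of 0 in both.

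Psmd11 encodes the lid subunit that clamps lid, base and core together, and its gene lies at chr11:80428615-80473248 of GRCm38. Its levels were 102.6, 130.4 and 122.1 CPM in vehicle, 121.1, 130.9 and 127.6 CPM in gRc, 193.2, 248.2 and 248.4 CPM in H2O2, and 247.7, 255.1 and 254.5 CPM in gRc+H2O2. Each of the 6 libraries with peroxide was above each of the 6 without, and the lowest of them was H2O2 replicate 1. The log2 fold change was 0.96 (SE 0.14, adjusted p = 0.00164, edgeR) for H2O2 against vehicle and 1.00 (SE 0.14, adjusted p = 0.00122, edgeR) for gRc+H2O2 against gRc. The effective length that RSEM assigned to Psmd11, which depends on its estimated mixture of transcripts, was 2003 bases in vehicle replicate 3, 2036 bases in gRc replicate 3 and 675 to 1127 bases in the other 10 libraries. With these lengths as offsets the log2 fold changes were 1.24 (adjusted p = 0.0742, edgeR) and 0.98 (adjusted p = 0.151, edgeR). On the TPM scale its levels were still higher in each H2O2 library, at 312.7 to 476.5 TPM, than in any vehicle library, at 85.4 to 237.8 TPM.

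Psmd7 encodes the lid subunit that pairs with the deubiquitinase Psmd14 (chr8:107580381-107588464). It stood at 168.1, 271.7 and 172.0 CPM in vehicle and at 337.4, 350.8 and 357.6 CPM in H2O2. The groups did not overlap, and the log2 fold change was 0.77 (SE 0.23, adjusted p = 0.0436, edgeR). In gRc its levels were 259.4, 274.8 and 160.5 CPM and in gRc+H2O2 311.5, 305.6 and 341.4 CPM, again without overlap, but the log2 fold change of 0.46 (SE 0.23) did not pass, with an adjusted p of 0.214 by edgeR. Even against vehicle Psmd7 passed in only 2 of the 12 fits that left out 1 library, those without vehicle replicate 2 or gRc replicate 3, with adjusted p from 0.0157 to 0.13 by edgeR. Psmd8, another lid subunit, had a log2 fold change of 0.74 for H2O2 against vehicle, with an SE of 0.28 and an adjusted p of 0.101 by edgeR.

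Psmd1 encodes the large scaffold of the base (chr1:86064387-86139151). It was at 247.4, 299.3 and 274.8 CPM in vehicle, 295.0, 305.0 and 280.2 CPM in gRc, 356.8, 402.3 and 384.3 CPM in H2O2, and 378.1, 395.4 and 408.4 CPM in gRc+H2O2. The 6 libraries with peroxide again lay above the 6 without. Its log2 fold changes were 0.48 (SE 0.12, adjusted p = 0.0257, edgeR) without gRc and 0.43 (SE 0.12, adjusted p = 0.0412, edgeR) with gRc. With 1 library left out Psmd1 passed in 8 of 12 fits without gRc, failing without vehicle replicate 3 or any of the H2O2 replicates, and in 3 of 12 with gRc, where it passed only without a vehicle replicate. Psmc2, an ATPase of the base (chr5:21785283-21803787), was at 121.9, 137.4 and 145.8 CPM in vehicle and 167.3, 183.8 and 209.1 CPM in H2O2, a rise of 0.47 in log2 (SE 0.13, adjusted p = 0.0379, edgeR). With gRc it was at 125.9, 151.4 and 128.5 CPM before and 181.3, 179.5 and 187.8 CPM after peroxide, a difference of 0.44 in log2 (SE 0.13, adjusted p = 0.0502, edgeR). Psmc2 was thus past the threshold in the first comparison and just outside it in the second, with nearly equal fold changes, and against vehicle it passed in 2 of 12 fits with 1 library left out, those without gRc replicate 2 or 3.

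Psme3 encodes an activator that opens the core for degradation without ubiquitin or ATP (chr11:101316213-101323537). Its levels were 120.5, 136.0 and 121.3 CPM in vehicle, 106.5, 126.6 and 117.5 CPM in gRc, 156.6, 188.4 and 181.5 CPM in H2O2, and 168.2, 199.2 and 184.7 CPM in gRc+H2O2. It rose with peroxide by 0.48 in log2 (SE 0.13, adjusted p = 0.0309, edgeR) without gRc and 0.66 (SE 0.13, adjusted p = 0.0073, edgeR) with gRc. On the TPM scale vehicle, at 86.2, 162.5 and 88.8 TPM, and H2O2, at 125.7, 207 and 183.8 TPM, overlapped, while gRc and gRc+H2O2 did not. The effective length of Psme3 ran from 1305 to 2065 bases over the libraries. Over the alternative fits its lowest log2 fold change against vehicle was 0.36. With 1 library left out it passed in 8 of 12 fits without gRc, failing without vehicle replicate 3, H2O2 replicate 2 or 3, or gRc+H2O2 replicate 3, and in 12 of 12 with gRc. The other activators did not pass: Psme1 and Psme2, which form the interferon-induced activator, had log2 fold changes of -0.09 and -0.02 without gRc, Psme2b of -0.49 and Psme4 of 0.04.

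Psmd5 encodes a chaperone that binds the base during assembly and is absent from the finished particle (chr2:34849734-34874968). It was at 50.6, 53.3 and 58.0 CPM in vehicle, 61.3, 51.4 and 55.0 CPM in gRc, 91.4, 89.2 and 69.9 CPM in H2O2, and 97.8, 89.0 and 77.0 CPM in gRc+H2O2. On the CPM scale all libraries with peroxide exceeded all without. On the TPM scale vehicle, at 32.3, 41.4 and 56.7 TPM, and H2O2, at 55.2, 70.6 and 38.3 TPM, overlapped, while gRc and gRc+H2O2 did not. The effective length of Psmd5 ran from 1430 to 2496 bases over the libraries. Over the alternative fits its lowest log2 fold change against vehicle was 0.32. The log2 fold change was 0.63 (SE 0.15, adjusted p = 0.0142, edgeR) without gRc and 0.65 (SE 0.15, adjusted p = 0.0122, edgeR) with gRc. With 1 library left out it passed in 10 of 12 fits, failing without H2O2 replicate 1 or 2, and with gRc in 11 of 12, failing without gRc+H2O2 replicate 1. Psmd10 (gankyrin), which chaperones another part of the base, was at 33.0, 32.4 and 32.9 CPM in vehicle and 31.2, 28.2 and 27.2 CPM in H2O2, a log2 fold change of -0.18 (SE 0.16) that did not pass, and Psmd9 had one of -0.14. Psmc3ip, the gene that is no subunit, was at 4.49, 5.39 and 4.24 CPM in vehicle, 5.86, 5.93 and 3.53 CPM in gRc, 4.47, 3.73 and 3.60 CPM in H2O2, and 3.90, 3.53 and 4.49 CPM in gRc+H2O2, and passed in no comparison.

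**Figure D3:**
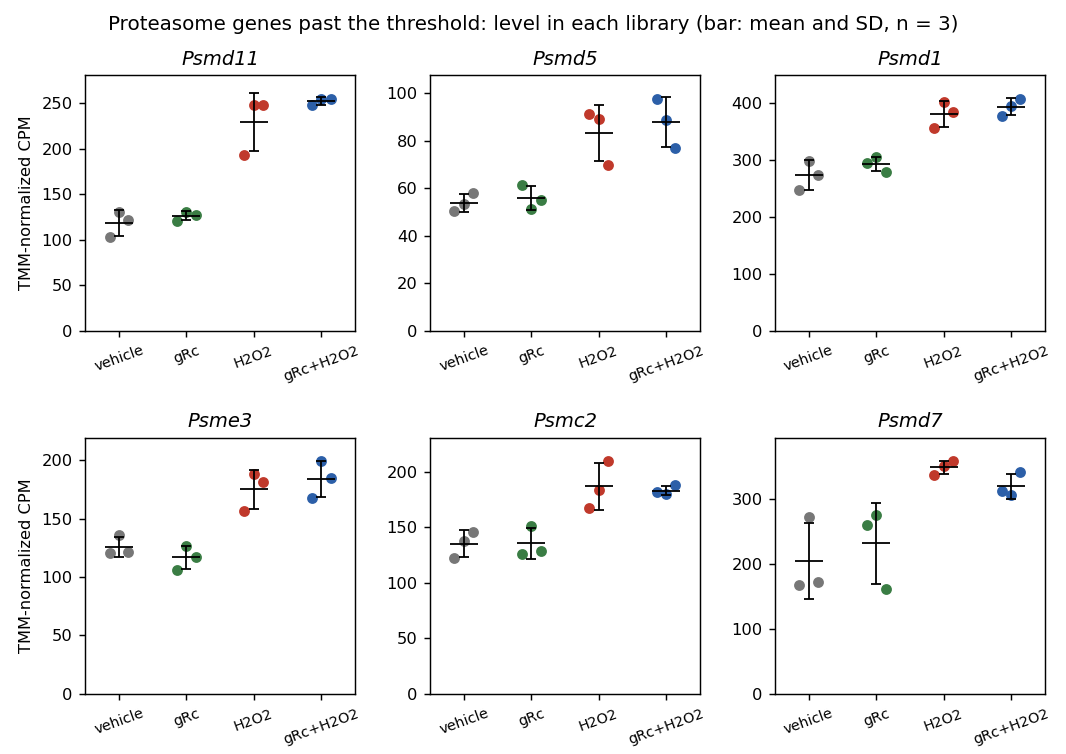
TMM-normalized CPM of the 6 proteasome genes past the threshold in each library (points) of the 4 groups, with mean and SD (n = 3); axes start at 0. For Psmd11 the 6 libraries with peroxide lie between 193.2 and 255.1 CPM and the 6 without between 102.6 and 130.9 CPM, and the groups with and without peroxide are likewise apart in the panels of Psmd5, Psmd1, Psme3, Psmc2 and Psmd7.

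None of the 3 constitutive proteolytic subunits passed the test in any comparison, and the highest vehicle library exceeded the lowest by 3.15-fold for Psmb5, 1.58-fold for Psmb6 and 1.41-fold for Psmb7. Psmb5 was at 317.0, 131.7 and 100.6 CPM in vehicle, 160.2, 162.5 and 87.2 CPM in gRc, 217.6, 129.5 and 175.7 CPM in H2O2, and 118.4, 94.0 and 135.4 CPM in gRc+H2O2. Psmb6 was at 221.7, 140.0 and 141.5 CPM in vehicle, 161.3, 172.1 and 115.7 CPM in gRc, 192.4, 136.6 and 209.4 CPM in H2O2, and 143.2, 132.7 and 158.0 CPM in gRc+H2O2. Psmb7 was at 247.4, 212.8 and 175.7 CPM in vehicle, 225.9, 252.4 and 153.4 CPM in gRc, 303.5, 236.7 and 238.3 CPM in H2O2, and 190.6, 194.4 and 205.4 CPM in gRc+H2O2. All 3 overlapped between vehicle and H2O2, with log2 fold changes of -0.07 (SE 0.40), 0.10 (SE 0.23) and 0.29 (SE 0.20). These values show neither a change nor its absence. How large a change 3 libraries a group could detect was not tested.

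Of their interferon-induced counterparts, Psmb8 and Psmb10 did not pass either, and Psmb9 was too low to be tested. Psmb8 was at 0.222, 0.104 and 0.143 CPM in vehicle, 0.288, 0.406 and 0.0642 CPM in gRc, 0.466, 0.407 and 0.331 CPM in H2O2, and 0.167, 0.126 and 0.339 CPM in gRc+H2O2. Each H2O2 library of Psmb8 lay above each vehicle library. Its log2 fold change for H2O2 against vehicle was the highest of all members at 1.39, but with an SE of 0.61 and an adjusted p of 0.157 by edgeR on a handful of counts. Psmb9 had 1.51, 2.00 and 0 expected counts in vehicle, 4.00, 3.00 and 0 in gRc, 7.64, 4.23 and 1.00 in H2O2, and 2.08, 4.13 and 3.06 in gRc+H2O2. Psmb10 was at 19.7, 14.0 and 10.6 CPM in vehicle, 17.2, 14.8 and 9.63 CPM in gRc, 12.4, 10.0 and 9.52 CPM in H2O2, and 10.0, 8.81 and 11.3 CPM in gRc+H2O2, with overlap between vehicle and H2O2. Psma8, a testis form of an alpha subunit, and Psmb11, the thymus form of the chymotrypsin-like subunit, had 0 to 2 counts in every library.

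The spread within groups bears on which members could pass. The highest vehicle library exceeded the lowest by more than 2-fold for 12 of the 43 members, near the 31.3% of the 9200 genes with a mean of at least 10 CPM. It did so by 5.42-fold for Psmd4, at 1100, 356.4 and 202.9 CPM. Psmd13, a lid subunit, ran the same way at 384.4, 138.7 and 89.6 CPM, whereas Psmb2, a structural beta subunit, ran the opposite way at 21.6, 58.5 and 92.2 CPM. The median over members of this fold was 1.62 in vehicle, 1.60 in gRc, 1.29 in H2O2 and 1.18 in gRc+H2O2, close to the medians of 1.63, 1.43, 1.25 and 1.18 over the 9200 genes with a mean of at least 10 CPM. Across the 43 members the ratio of vehicle replicate 3 to vehicle replicate 1 fell with the GC content of the gene, at a Spearman rho of -0.39 as a description over genes of the same 2 libraries, against -0.27 over the 9200 genes. The part of GC content in the fold changes was not tested beyond refitting with GC offsets, after which 5 members passed for H2O2 against vehicle, all but Psmc2 of the 6, and 6 for gRc+H2O2 against gRc.

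**Figure D4:**
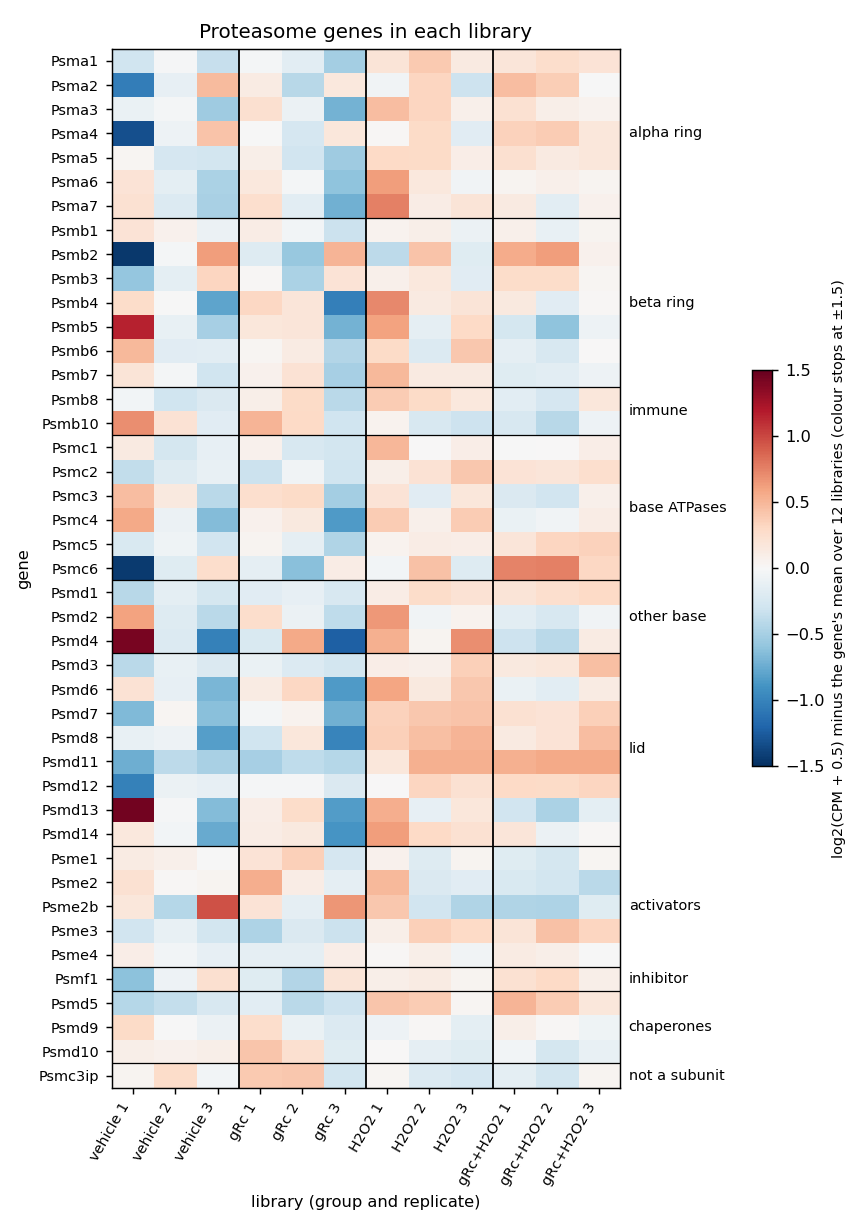
Deviation of each tested proteasome gene in each library from its mean over the 12 libraries, as log2(CPM + 0.5), from blue (below the mean) to red (above it), with deviations running from -1.45 to 1.45. Vehicle replicate 1 holds both the reddest cells, such as Psmd4 and Psmd13, and the bluest, such as Psmb2 and Psmc6, while Psmd11, Psmd5, Psmd1 and Psme3 are blue in all libraries without peroxide and red, or near 0, in all with it.

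Summed over particles, the lid and the activators separated the libraries with and without peroxide. The 8 lid genes summed to 1682, 1617 and 1156 CPM in vehicle, 1598, 1801 and 1076 CPM in gRc, 2193, 2143 and 2267 CPM in H2O2, and 1930, 1908 and 2171 CPM in gRc+H2O2, so that each library with peroxide exceeded each without. Of these 8, Psmd8 had the highest means, at 376 CPM in vehicle and 629 CPM in H2O2, and did not pass. Against vehicle only Psmd11 and Psmd7 passed, and Psmd13 had a log2 fold change of -0.31. The 5 activators lay at 379 to 415 CPM without and 440 to 468 CPM with peroxide, with most of the level from Psme4 and Psme3. Of these 5 only Psme3 passed the test, with means of 126 CPM in vehicle and 175 CPM in H2O2. Psme4 had means of 193 and 198 CPM. The log2 fold changes of 3 of the 5 were below 0 in each peroxide comparison. The 7 beta ring genes overlapped, at 889 to 1262 CPM in vehicle and 1058 to 1324 CPM in H2O2. The 7 alpha ring genes did not overlap between vehicle, at 722 to 776 CPM, and H2O2, at 856 to 1128 CPM, but did between gRc, at 619 to 930 CPM, and gRc+H2O2, at 896 to 974 CPM. These sums were read as levels and were not tested.

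The count of members that rose with H2O2 depended on the setting. A fit without the 3 libraries that stood apart (vehicle replicates 1 and 3, gRc replicate 3) left vehicle with a single library, assumed to vary like the other groups, and then 1 member passed, Psmd11. Leaving out a single library gave 1 member without H2O2 replicate 2, 2 without vehicle replicate 3, H2O2 replicate 1 or H2O2 replicate 3, and 3 without gRc+H2O2 replicate 3. Psmd11 passed in each of these fits. The calls over all genes moved as well. They numbered 2323 in the main fit and, with single libraries left out, from 1290 without H2O2 replicate 3 to 3123 without vehicle replicate 1. For effective length offsets, GC offsets, the replicate block and DESeq2, calls over all genes in the peroxide comparisons are not given. The counts of members in those fits therefore have no background beside them. With effective length offsets, or with limma on log2(TPM + 0.5), 0 members passed in either peroxide comparison, and with only the vehicle and H2O2 groups fitted 1 did, Psmd11.

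To see whether the response to peroxide was the same in pretreated cells, gRc+H2O2 was compared with gRc, a comparison that shares no library with the first. The controls are nonetheless linked, since same-numbered gRc and vehicle libraries deviated together, with correlations of 0.460, 0.271 and 0.860, so the comparisons are not independent. There 4 of 43 members rose and 0 fell, against 15.7% of all genes called, 7.57% as higher and 8.15% as lower. They were Psmd11, Psme3, Psmd5 and Psmd1, and all 4 were among the 6 that rose without gRc, so that the shared genes made up 4 of 6 in the first list and 4 of 4 in the second. Over all genes, those higher past the threshold in both comparisons made up 76.8% of the first list and 79.3% of the second. At an unadjusted p under 0.05 there were 9 members higher and 1 lower, against 28.2% of all genes in either direction. The lower one was Psme2, an activator subunit named after its value was seen. The median log2 fold change was 0.17, against -0.04 over all genes, and 29 of 43 were above 0, against 47% of all genes. Libraries of the 2 groups did not overlap for 13 members that were higher and 2 that were lower, against 19.2% and 19.5% of all genes.

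By particle, all 7 alpha ring genes again had log2 fold changes above 0, from 0.17 to 0.44. Of the 14 core genes 0 passed, near the 7.57% of all genes called higher, and 2 were at an unadjusted p under 0.05. The lid had a median of 0.42 with 1 of 8 past the threshold, and the ATPases a median of 0.30 with 0 of 6. Over both comparisons 27 members were above 0 in both, 9 were below 0 in both, and 7 had different signs, while over all genes 38.1% were above 0 in both, 45.2% below 0 in both and 16.7% had different signs. Without vehicle replicate 1, whose group is outside this comparison but shares the estimate of the spread, 9 members passed, and without gRc+H2O2 replicate 1 only Psmd11 and Psme3 did. Without gRc replicate 3 the median turned to -0.017, with Psmd11, Psmd5 and Psme3 as risers and Psmd10 lower.

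Without the 3 libraries that stood apart, 15 members passed in gRc+H2O2 against gRc, or 34.9%, which is close to the 34.5% of all genes that passed in that fit. Of the members 10 were higher and 5 lower, or 23.3% and 11.6%, against 17.1% and 17.4% of all genes, and their median was -0.025. The 10 were Psmd11, Psme3, Psmd5 and Psmd1 together with the ATPases Psmc2, Psmc5 and Psmc6, the lid subunit Psmd3, the beta subunit Psmb2 and the inhibitor Psmf1. The 5 lower ones were the activator subunits Psme1 and Psme2, the interferon-induced Psmb10, the chaperone Psmd10 and Psmc3ip.

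Whether gRc changed the members under peroxide was asked by comparing gRc+H2O2 with H2O2. With edgeR 0 of 43 members passed, 0 reached an unadjusted p under 0.05, and DESeq2 also called 0. The background was as low, with 0% of all genes called by edgeR, 0.822% at an unadjusted p under 0.05, and 2 genes called by DESeq2. The median log2 fold change of the members was -0.08, with 16 of 43 above 0 against 50% of all genes, and the smallest adjusted p was 0.922. The 4 members with the smallest p were Psmb7, Psme2, Psmb8 and Psmd6. Psmb7, the trypsin-like subunit, was lower in each gRc+H2O2 library than in any H2O2 library, a difference of -0.40 in log2 (SE 0.20, adjusted p = 0.922, edgeR). Psme2 was at 47.1, 40.6 and 41.4 CPM in vehicle, 59.2, 43.7 and 36.6 CPM in gRc, 56.6, 34.5 and 35.8 CPM in H2O2, and 34.3, 33.1 and 30.2 CPM in gRc+H2O2. Psmd6, a lid subunit, was at 185.9, 146.9 and 99.0 CPM in vehicle, 174.8, 197.9 and 88.7 CPM in gRc, 241.5, 176.8 and 211.7 CPM in H2O2, and 148.7, 143.5 and 173.8 CPM in gRc+H2O2. Both were lower in each gRc+H2O2 library than in any H2O2 library, by a narrow margin. Their log2 fold changes were -0.38 (SE 0.22) and -0.43 (SE 0.29), and that of Psmb8 was -0.93 (SE 0.57). Groups did not overlap for 6 members that were lower and 1 that was higher, against 7.62% and 7.69% of all genes. Of the 6, 4 belonged to the regulatory particle, which holds 17 of the 43 tested members.

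In cells without peroxide, gRc against vehicle gave 0 members and 0% of all genes called by edgeR, 0 members and 0.499% of all genes at an unadjusted p under 0.05, and 0 genes by DESeq2. The median log2 fold change of the members was 0.0036, and 23 of 43 were above 0, against 50.4% of all genes. The libraries of the groups overlapped for all 43 members, while 0.869% of all genes were higher and 0.741% lower without overlap. The smallest p belonged to Psmd13, Psmd12, Psmb8 and Psmb5. Psmd13 had 384.4, 138.7 and 89.6 CPM in vehicle, 150.5, 170.8 and 78.3 CPM in gRc, 205.3, 129.6 and 157.7 CPM in H2O2, and 115.2, 101.5 and 126.8 CPM in gRc+H2O2. Its log2 fold change for gRc against vehicle was -0.62 (SE 0.46), and vehicle replicate 1 stood far above the other libraries. Psmd12, a lid subunit, had 71.5, 136.7 and 133.3 CPM in vehicle, 142.6, 142.7 and 124.5 CPM in gRc, 146.1, 181.2 and 170.4 CPM in H2O2, and 178.7, 177.1 and 181.7 CPM in gRc+H2O2. Its log2 fold change for gRc was 0.26 (SE 0.21), and those of Psmb8 and Psmb5 were 0.70 (SE 0.64) and -0.42 (SE 0.40). For the 6 members that rose with H2O2, the log2 fold changes for gRc lay between -0.11 for Psme3 and 0.18 for Psmd7. The difference between the peroxide responses with and without gRc, tested as an interaction with edgeR, passed for 0 members and 0% of all genes, with 0 members and 0.586% of all genes at an unadjusted p under 0.05 and 1 gene called by DESeq2. Its median over the members was -0.10, and for Psmd11 it was 0.04 (SE 0.20).

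Beyond the members, 51 genes that work with the proteasome were tested in 8 lists, and 14 rose with H2O2 while 0 fell. With gRc+H2O2 against gRc 11 rose and 0 fell, and in gRc+H2O2 against H2O2 and in gRc against vehicle 0 passed with edgeR. These counts stand beside 7.81% and 7.57% of all genes higher in the 2 peroxide comparisons. They and the values of the genes below come from the main fit alone. The alternative fits, in which the counts of members changed, are not given for them. Of the genes that regulate subunit transcription 5 of 7 rose against vehicle and 3 of 7 against gRc. The small MAF gene Mafg, whose product pairs with NFE2L1 and NFE2L2 on DNA, was at 189.9, 130.7 and 106.8 CPM in vehicle and 341.5, 297.1 and 344.0 CPM in H2O2. It rose by 1.20 in log2 (SE 0.20, adjusted p = 0.00314, edgeR), and with gRc it was 1.20 as well. Maff, of the same family, was at 39.8, 28.6 and 20.1 CPM in vehicle and 82.5, 69.1 and 95.7 CPM in H2O2, a rise of 1.48 in log2 (SE 0.26, adjusted p = 0.00392, edgeR). Nfe2l2 was at 71.9, 166.4 and 169.7 CPM in vehicle and 208.9, 351.8 and 306.7 CPM in H2O2, a rise of 1.09 in log2 (SE 0.30, adjusted p = 0.0338, edgeR), and 1.31 (SE 0.31, adjusted p = 0.0154, edgeR) with gRc.

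Nfe2l1, the activator of subunit genes named in the background, was singled out after its values were seen. It was at 928.5, 926.0 and 720.4 CPM in vehicle, 869.9, 994.5 and 777.9 CPM in gRc, 1252, 1286 and 1497 CPM in H2O2, and 1122, 1186 and 1368 CPM in gRc+H2O2. Each library with peroxide exceeded each without, and the log2 fold change was 0.65 (SE 0.17, adjusted p = 0.0255, edgeR) without gRc and 0.48 (SE 0.17, adjusted p = 0.0844, edgeR) with gRc. Keap1, which holds NFE2L2 in the cytosol, and Ngly1, which processes NFE2L1, had log2 fold changes of 0.18 and -0.09.

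Partners that bind the particle but carry other names rose in 4 of 9 cases against vehicle and 2 of 9 against gRc. Zfand5, which binds the particle and speeds degradation, was at 70.3, 82.2 and 88.5 CPM in vehicle, 96.8, 76.0 and 85.4 CPM in gRc, 149.1, 182.5 and 133.7 CPM in H2O2, and 176.8, 180.1 and 157.7 CPM in gRc+H2O2. Its log2 fold changes were 0.95 (SE 0.16, adjusted p = 0.00295, edgeR) and 1.00 (SE 0.16, adjusted p = 0.00218, edgeR). Zfand2a, known as a stress-induced partner of the same kind, was at 36.7, 39.4 and 53.8 CPM in vehicle and 73.6, 81.8 and 72.7 CPM in H2O2, with 0.81 (SE 0.17, adjusted p = 0.00827, edgeR) and 0.94 (SE 0.17, adjusted p = 0.00396, edgeR). Ecpas, an adaptor of the particle, rose against vehicle by 0.64 (SE 0.16, adjusted p = 0.02, edgeR) and had 0.40 with gRc, which did not pass.

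**Figure D5:**
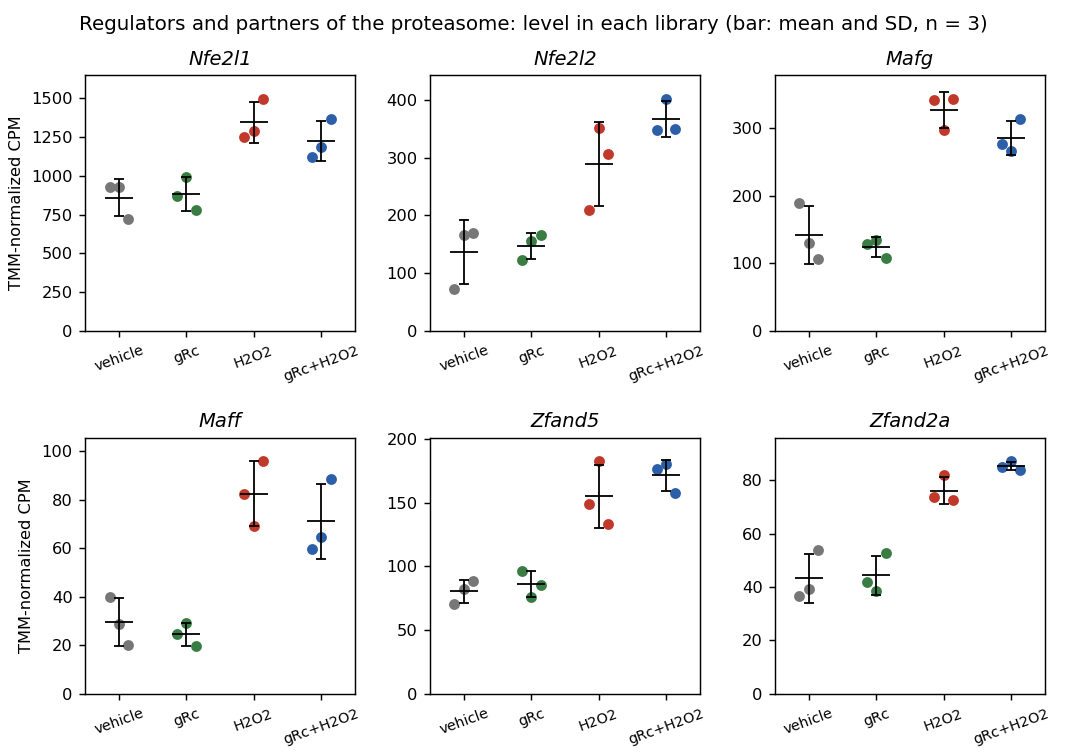
TMM-normalized CPM of 4 regulators of subunit transcription and 2 partners of the particle in each library (points) of the 4 groups, with mean and SD (n = 3); axes start at 0. Nfe2l1 lies between 720.4 and 994.5 CPM in the 6 libraries without peroxide and between 1122 and 1497 CPM in the 6 with it, and the panels of Nfe2l2, Mafg, Maff, Zfand5 and Zfand2a show the same separation.

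Other steps of the pathway gave fewer calls. Assembly chaperones named otherwise passed in 0 of 6 cases in both peroxide comparisons, genes of ubiquitin and its activating enzymes in 0 of 6, and substrate shuttles in 0 of 7 against vehicle and 1 of 7 against gRc. That shuttle was Rad23b, which carries ubiquitinated proteins to the particle, at 388.9, 466.9 and 416.0 CPM in gRc and 577.7, 687.5 and 597.4 CPM in gRc+H2O2, a rise of 0.55 in log2 (SE 0.15, adjusted p = 0.0327, edgeR). Of the VCP unfoldase and its cofactors 1 of 4 rose in each comparison, Nploc4, with 0.57 and 0.55 (SE 0.17 for both, adjusted p = 0.0389 and 0.0445, edgeR).

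Of the ubiquitin ligases known from muscle atrophy 3 of 4 rose in each comparison. Fbxo30 went from 49.0, 51.4 and 39.7 CPM in vehicle to 90.9, 112.7 and 94.0 CPM in H2O2 (log2 fold change 1.09, SE 0.14, adjusted p = 0.000879, edgeR), Trim63 (MuRF1) rose by 0.60 (SE 0.16) and Traf6 by 0.45 (SE 0.13), whereas Fbxo32 (atrogin-1) had -0.07 (SE 0.13). Among 8 genes of antigen presentation only Tap1 rose, the peptide transporter whose gene at chr17:34187553-34197225 ends next to Psmb8 at chr17:34197721-34201454. Tap1 was at 2.05, 1.28 and 0.678 CPM in vehicle, 1.12, 1.42 and 1.22 CPM in gRc, 3.96, 4.55 and 5.54 CPM in H2O2, and 4.47, 4.95 and 4.79 CPM in gRc+H2O2. Its log2 fold changes were 1.83 (SE 0.33, adjusted p = 0.00437, edgeR) and 1.92 (SE 0.33, adjusted p = 0.00324, edgeR), while those of Psmb8 were 1.39 and -0.24, neither past the threshold. The lists were chosen with results of these data known, so these counts describe the lists and are no independent evidence.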

How the data were processed

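RNA of 12 C2C12 libraries was sequenced by the study. Per the labels, reads were checked with FastQC, trimmed with Trim Galore, aligned to GRCm38 with STAR 2.7.3a and counted with RSEM 1.3.3. The deposited expected counts of RSEM are estimated reads per gene and were rounded to whole numbers here. The deposited TPM values, normalized by the authors' RSEM run for effective length and depth, were used for levels between genes. The deposited FPKM column, RSEM's length- and depth-scaled value, was not used. The kit keeps strand, but whether RSEM was told so is not given in the sources used here, so overlapping genes are uncertain.

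Genes were filtered with filterByExpr (14838 of 48795 kept). Groups came from the labels and were fitted together with edgeR 4.0.16 in R 4.3.3 (TMM factors, quasi-likelihood test, Benjamini-Hochberg adjustment over all kept genes, threshold 0.05). CPM are TMM-normalized. The procedure was tested on simulated data. Alternatives included DESeq2 1.42.0, limma 3.58.1 on log2(TPM + 0.5), other filters and offsets, and libraries left out.

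Depth was 19274762 to 31409066 counts per library, and the precision of each value rests on 3 libraries per group. The name rule for members uses no values of these data, but the rule and the lists were set with earlier results of these data known. Members were named, with the value of every library, if they passed the test, were among the 4 smallest p of a comparison, were proteolytic or their interferon-induced counterparts, or were no subunit, and up to 3 passing genes were named per list. Psmb2, Psmd4, Psmd8, Psmd10, Psmd9 and the further list genes in the text were named after their values were seen. Gene names and positions came from GENCODE, matching 48349 of 48795 identifiers, and sequences from RefSeq. Replicate numbers linked gRc with vehicle by the correlation of same-numbered libraries (0.460, 0.271 and 0.860, all above 0.1), and not the other comparisons. The main fit held no replicate term, so its values for gRc against vehicle come from a test that ignores this link. The alternative fit with a replicate block applied it to all 4 groups.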

Additional observations from a re-analysis of the deposited data

How the results depend on the processing

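The number of members past the threshold for H2O2 against vehicle, 6, became 2 with no filter, 1 with only the 2 groups compared, 0 with effective length offsets, 0 with limma on log2(TPM + 0.5) and 1 with vehicle replicates 1 and 3 and gRc replicate 3 left out. For gRc+H2O2 against gRc the number, 4, became 8 with DESeq2, 0 with effective length offsets, 0 with limma on log2(TPM + 0.5) and 15 with the 3 libraries left out, where the median log2 fold change turned to -0.025. With single libraries left out the numbers ran from 1 to 8 and from 2 to 9, and the medians from 0.19 to 0.40 and from -0.017 to 0.30. The cause of these shifts was not tested, beyond the fewer libraries that some of these fits hold.

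All genes past the threshold, 2323 for H2O2 against vehicle, numbered 668 with only the 2 groups compared and 1492 with limma, and 1290 to 3123 with single libraries left out. For gRc+H2O2 against gRc, 2332 became 1459 with limma and 5120 with the 3 libraries left out, and 1205 to 3267 with single libraries left out. DESeq2 called 2 genes for gRc+H2O2 against H2O2 and 1 for the interaction, against 0.

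Psmd11 passed in 10 of 12 alternatives and with each of the 12 libraries left out, in both peroxide comparisons, and the log2 fold changes of all called members stayed above 0 in the fits run. With a replicate block 7 and 6 members passed, and 0 in the comparisons that ask about gRc. In H2O2 against vehicle same-numbered libraries correlated by 0.440, 0.294 and -0.283, in gRc+H2O2 against gRc by 0.0206, -0.496 and -0.550, and in gRc+H2O2 against H2O2 by 0.0802, 0.402 and 0.309. Depth limits Psmb8, Psmb9, Psma8 and Psmb11, which have at most 12 counts a library, and for Psmb5, Psmd4 and Psmd13 the spread between libraries sets the limit.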
